A study of Mus musculus with 6 samples.

Results

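The B cell receptor signalling genes described here are 32 genes that carry, pass on or restrain the signal of the antigen receptor. They were chosen by name, from a list of receptor chains, co-receptors, kinases, adaptors and inhibitory phosphatases, and not by their level in these samples. Earlier results of these data were known when the list was chosen. All 32 were found among the 22098 gene names of the deposited table and all 32 had a mean level high enough to be tested, as had 10322 names in all. Syk is listed there under its older symbol Sykb and was matched by its RefSeq accession. By textbook role, 20 were taken as positive, 8 as inhibitory and 4 as having both kinds of role (dual).

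The RNA came from bone marrow B cells that had been sorted for IgM, taken from 6-week-old mice of strain C57BL/6, and the labels give no treatment. There were 3 genotypes with 2 libraries each: wild type, Ikaros_ZnF1-/- (homozygous for loss of zinc finger 1 of Ikaros, here ZnF1-/-) and Ikaros_ZnF4-/- (homozygous for loss of zinc finger 4, here ZnF4-/-). Ikaros, encoded by Ikzf1, is a DNA-binding zinc finger protein of lymphocytes, and the comparisons ask which RNA levels depend on each finger. The labels do not say whether each library came from a separate mouse or from pooled mice, so the spread between libraries may be technical in part. The labels name no Cre driver or conditional allele.

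The B cell receptor pairs a membrane antibody with the CD79A and CD79B chains, whose cytoplasmic tails hold tyrosines that are phosphorylated by Src family kinases. SYK docks there and, through the adaptor BLNK and the kinase BTK, activates phospholipase C gamma 2, which opens the calcium, NFAT, protein kinase C, NF-kB and Ras arms. Inhibitory receptors such as CD22 and CD72 recruit the phosphatases SHP-1 and SHIP-1 and raise the threshold for activation. In bone marrow, newly formed B cells that bind self antigen are silenced, edited or lost depending on the strength of this signal.

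The libraries had the profile of B cells. Of 10 B cell markers, 9 were in the table, and all 9 were above 0 in each library. Their summed level was 9756 to 13664 RPKM (reads per kilobase of a transcript, scaled by the size of the library). Cd74 made up most of it, at 5700 to 9205 RPKM. Pax5 and Ebf1 were lower in all 4 mutant libraries than in wild type, and Cr2 was higher. None of these differences passed the test described below. The 10 T cell markers summed to 104 to 161 RPKM, of which Cd2 made up 94.3 to 156.7. Cd3e, which defines T cells, lay between 0.2 and 0.7 RPKM, and Cd8a was at 1.2 and 1.5 in ZnF1-/- cells and 0.1 to 0.2 elsewhere. The summed level of 20 granulocyte and monocyte markers was 559 and 841 RPKM in wild type, 1608 and 8428 in ZnF1 replicates 1 and 2, and 1926 and 2118 in ZnF4-/- cells, with all 20 above 0 in each library. ZnF1 replicate 2 thus stood apart, also in its 9 erythroid markers (672 RPKM, against 101 to 242 in the other libraries). S100a8 and S100a9 made up most of the granulocyte and monocyte sum in each library. Within that list, Tyrobp was lower in ZnF4-/- cells (26.8 and 27.1 RPKM) than in wild type (52.2 and 54.1), and so was Csf1r. Wild-type replicate 1 stood apart in the sum of its 6 plasma cell markers, at 604 RPKM against 111 to 204 elsewhere. Igj alone made up 413.8 of those 604 RPKM and lay between 1.1 and 71.9 RPKM elsewhere. Xist, an RNA of female cells, had a listed value of 0 in ZnF1 replicate 2 and ZnF4 replicate 2 and lay between 39.6 and 66.8 RPKM in the other 4 libraries. The 2 libraries of each mutant were thus not made from the same RNA, while both wild-type libraries held Xist. The read depth is unknown, since RPKM rounded to steps of 0.1 do not keep it.

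For some genes of the list, 250 bases before the annotated start are shown, because Ikaros acts by binding DNA and a motif it binds can be looked for there. RefSeq promoter windows on the build GRCm38.p6 were found for 26 of the 32 genes, in 34 windows. The motif searched was TGGGAA on both strands (TTCCCA where it lies on the other strand), and matches are in capitals. Rasgrp3 is shown as the one gene of the list that was called changed by the test described below, in ZnF4-/- cells against wild type. Plcg2, Btk, Ptpn6 and Inpp5d are shown as 2 positive and 2 inhibitory genes whose window holds a match, and none of them was called in any comparison. The windows of Syk, Fyn, Cd72 and Siglecg, which are not shown, hold 0 matches.
Rasgrp3, chr17:75435655-75435904, plus strand: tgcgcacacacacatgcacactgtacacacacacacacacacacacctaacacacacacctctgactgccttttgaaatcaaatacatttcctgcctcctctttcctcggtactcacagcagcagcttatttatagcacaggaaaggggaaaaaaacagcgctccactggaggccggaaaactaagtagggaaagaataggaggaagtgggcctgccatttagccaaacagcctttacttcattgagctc
Plcg2, chr8:117498025-117498274, plus strand: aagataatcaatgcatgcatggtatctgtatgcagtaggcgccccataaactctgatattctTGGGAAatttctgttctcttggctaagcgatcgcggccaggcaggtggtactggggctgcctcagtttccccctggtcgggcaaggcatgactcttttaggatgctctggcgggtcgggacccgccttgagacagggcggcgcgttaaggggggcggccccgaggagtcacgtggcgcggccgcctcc
Btk, chrX:134583141-134583390, minus strand: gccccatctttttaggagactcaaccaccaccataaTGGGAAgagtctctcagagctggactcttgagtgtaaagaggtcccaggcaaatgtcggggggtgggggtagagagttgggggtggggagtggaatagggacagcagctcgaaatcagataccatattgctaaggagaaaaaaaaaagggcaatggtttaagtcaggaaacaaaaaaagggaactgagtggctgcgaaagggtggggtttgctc
Ptpn6, chr6:124738710-124738959, minus strand: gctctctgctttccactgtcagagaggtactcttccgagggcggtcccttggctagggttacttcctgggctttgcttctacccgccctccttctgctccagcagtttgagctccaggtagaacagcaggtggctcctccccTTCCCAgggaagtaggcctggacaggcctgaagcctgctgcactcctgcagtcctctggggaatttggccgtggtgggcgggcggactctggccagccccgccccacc
Inpp5d, chr1:87620062-87620311, plus strand: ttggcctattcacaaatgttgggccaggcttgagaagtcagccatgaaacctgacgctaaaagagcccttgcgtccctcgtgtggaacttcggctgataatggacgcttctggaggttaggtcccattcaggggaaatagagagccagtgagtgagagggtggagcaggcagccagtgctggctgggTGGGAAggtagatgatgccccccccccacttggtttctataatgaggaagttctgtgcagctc

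The motif was in 8 of the 34 windows (23.5%), against 20.3% of 9371 windows of tested genes and 21.6% of all 32851 windows of the same length. The 8 windows belong to Btk, Cblb, Cd22, Cd81, Inpp5d, Pik3cd, Plcg2 and Ptpn6. Counted by gene, that is 8 of 26 (30.8%), against 23.5% of 7377 tested genes. The Pik3cd and Cd22 windows with a match start 10878 and 1306 bases from the start of the transcript whose values are used. The other Pik3cd windows hold no match. Neither of the 2 Rasgrp3 windows holds TGGGAA or TTCCCA. Shorter forms such as GGGAA were not counted, and the Rasgrp3 window shown does hold GGGAA. The values of Rasgrp3 are those of the transcript that starts 21 bases from the start used for the window shown.

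The list as a whole was abundant. Levels differed by more than 1.5-fold from wild type for 1 of 32 genes in ZnF1-/- cells (3.1%) and 3 of 32 in ZnF4-/- cells (9.4%). The shares of all tested genes, which include genes of lower level, were 9% and 11.5%. Cd79b had the highest mean over the 6 libraries, 1971 RPKM, and Fyn the lowest, 19.5 RPKM, which was still above 65.7% of tested genes. Between the 2 libraries of a genotype, the median gap of these genes on the log2(RPKM + 0.5) scale was 0.18 for wild type, 0.16 for ZnF1-/- and 0.15 for ZnF4-/-, and 0.15, 0.19 and 0.18 for all tested genes. A gene is called changed where the adjusted p of a linear model (limma, two-sided, Benjamini-Hochberg over all tested genes) is under 0.05. Fold changes are differences on that log2 scale with their standard error (SE).

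In ZnF1-/- cells against wild type, 0 of the 32 genes were called by limma, where 0.271% of all tested genes were, and 4 of 32 had an unadjusted p under 0.05, where 11.9% of all did. The libraries of the 2 genotypes did not overlap for 15 genes (46.9%), 4 higher and 11 lower, against 41.5% of all tested genes (21.1% higher and 20.3% lower). In ZnF4-/- cells, 1 of 32 was called (3.13%), against 3.2% of all tested genes, so the share is that of the table as a whole. This gene was higher, as were 1.78% of all tested genes, and 1.41% were called lower. A further 6 genes reached an unadjusted p under 0.05, which makes 7 of 32 against 17.4% of all. Libraries did not overlap for 19 genes (59.4%), 6 higher and 13 lower, against 50.4% (23.1% higher and 27.2% lower). Between the mutants 0 of 32 were called by limma, where 4.78% of all tested genes were, with 4 at an unadjusted p under 0.05 against 20% of all. Libraries did not overlap for 18 of the 32 (56.25%), 10 higher and 8 lower in ZnF4-/- cells, against 46.8% (21% higher and 25.8% lower).

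**Figure D1:**
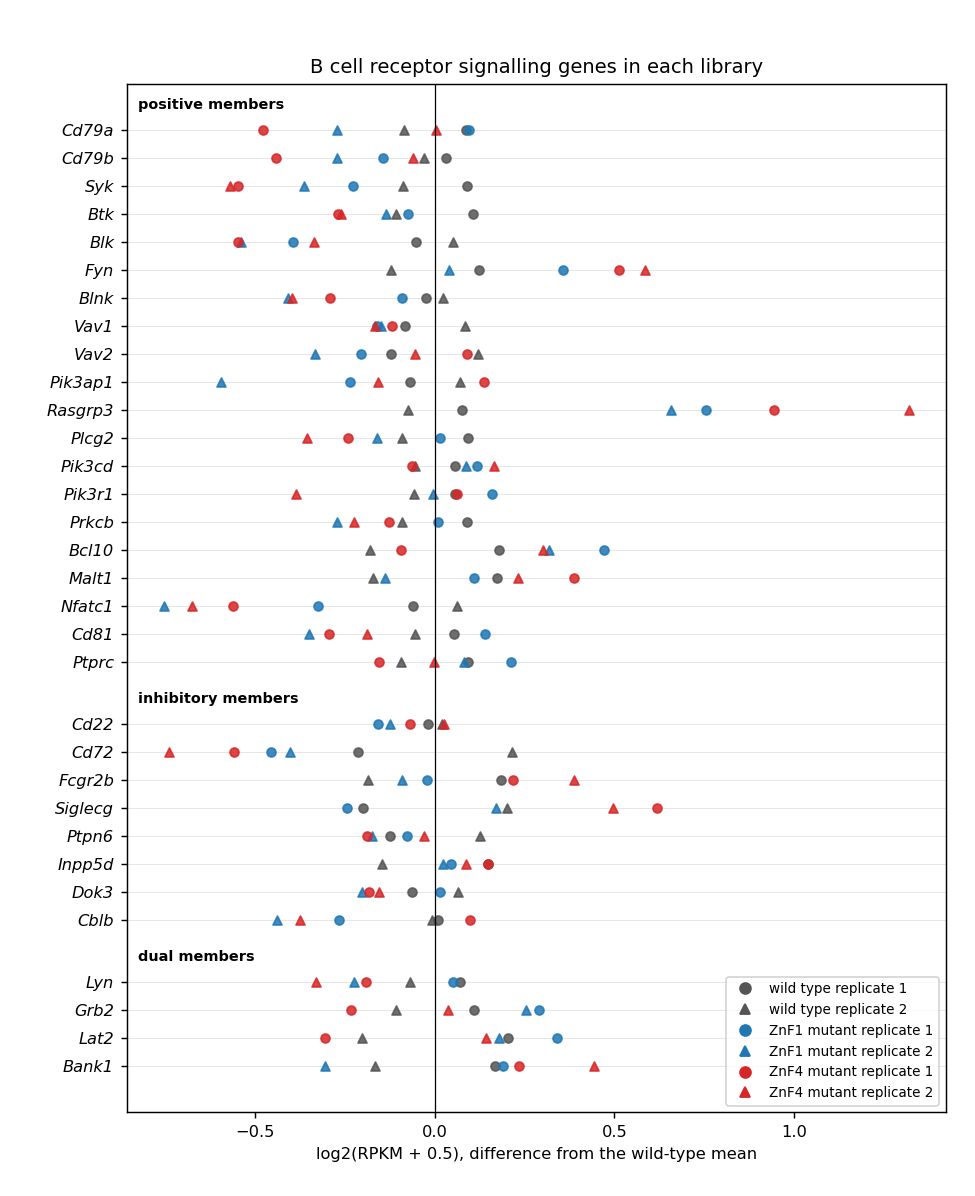
Each row is a gene and each point a library, placed by its log2(RPKM + 0.5) relative to the mean of the 2 wild-type libraries (circles replicate 1, triangles replicate 2). Rasgrp3 is the one row in which all 4 mutant libraries lie more than 0.5 above the wild-type mean.

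Rasgrp3 rose in ZnF4-/- cells. It encodes a guanine nucleotide exchange factor that is recruited by diacylglycerol and loads Ras with GTP after receptor engagement. The level was 34.7 RPKM in the first wild-type replicate and 31.2 in the second, 55.9 and 52.2 in ZnF1-/- cells, and 63.8 and 82.8 in ZnF4-/- cells. Both libraries of each mutant thus lay above both wild-type libraries, and the ZnF4 libraries lay above the ZnF1 libraries. The log2 fold change in ZnF4-/- cells was 1.13 (SE 0.15, adjusted p = 0.0116), which is 2.19-fold. In ZnF1-/- cells it was 0.71 (SE 0.15, adjusted p = 0.140), which did not pass, and between the mutants it was 0.42 (SE 0.15, adjusted p = 0.176), which did not pass either.

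The ZnF4 call on Rasgrp3 needs both libraries of both genotypes. That fold change was 1.21 on the log2 scale without wild-type replicate 1 (adjusted p = 0.0931), 1.06 without wild-type replicate 2 (0.135), 1.32 without ZnF4 replicate 1 (0.106) and 0.94 without ZnF4 replicate 2 (0.122). It also did not pass without a filter on low values (adjusted p = 0.0564), and over the 15 alternatives the adjusted p lay between 0.00765 and 0.135. Among the 4 libraries that hold Xist, the levels were 34.7 and 31.2 RPKM for wild type, 55.9 for ZnF1-/- and 63.8 for ZnF4-/-. ZnF1 replicate 2, where granulocyte RNA was most abundant, was at 52.2 RPKM and its partner at 55.9, and the part of granulocyte RNA in the Rasgrp3 values was not tested. The second Rasgrp3 transcript in the table lay between 0.4 and 1.3 RPKM, highest in ZnF4 replicate 2. In sorted bulk cells, more RNA per cell and more cells of a type that holds the RNA cannot be told apart.

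**Figure D2:**
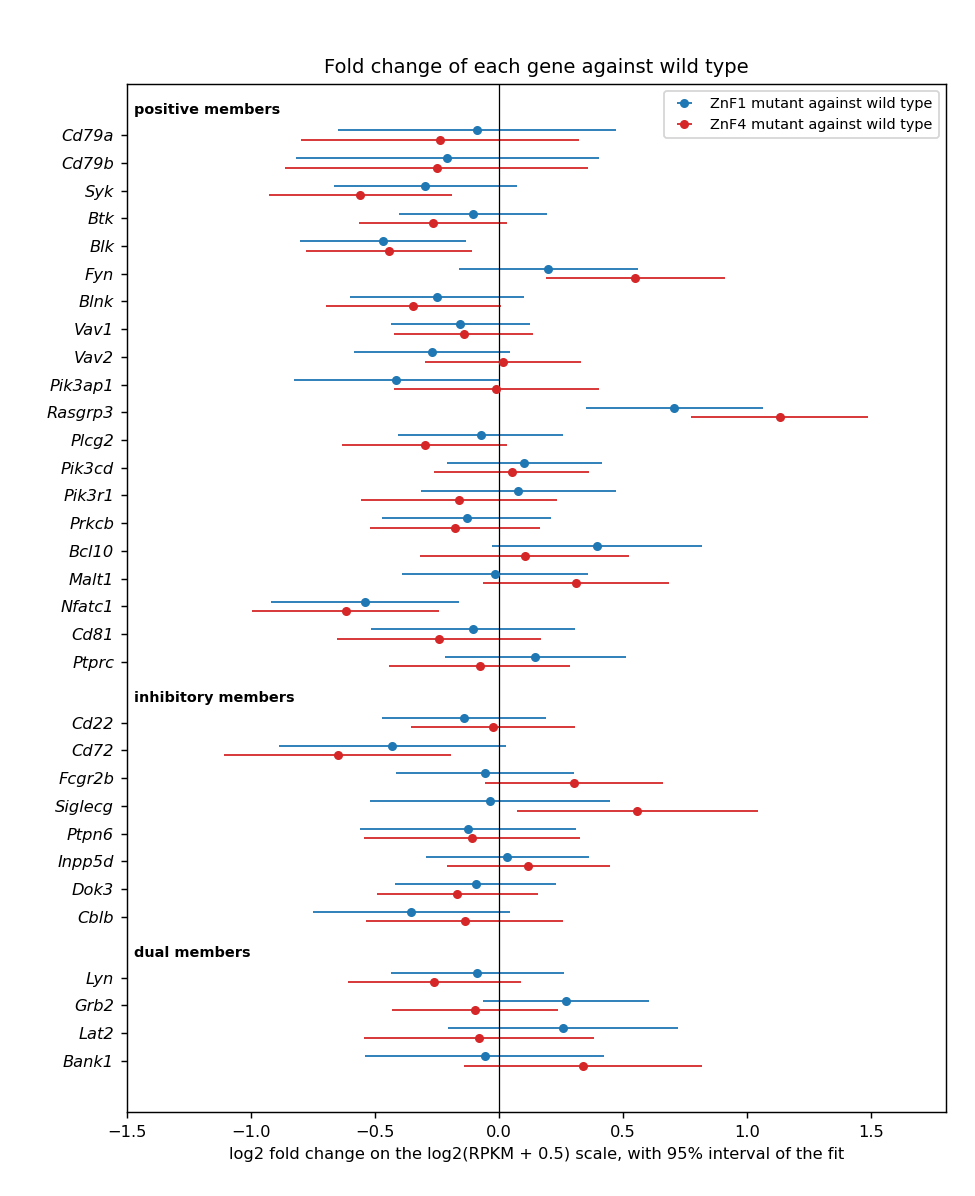
Points are log2 fold changes against wild type on the log2(RPKM + 0.5) scale for ZnF1-/- (blue) and ZnF4-/- (red), with the 95% interval of the linear model. Both mutants share the wild-type libraries. The Rasgrp3 interval in ZnF4-/- cells, 0.77 to 1.49, lies furthest from 0.

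The receptor's signalling chains were the most abundant genes of the list together with the phosphatase gene Ptpn6, and none of the 3 was called. Cd79b, which encodes the beta chain, was at 2227 and 2132 RPKM in wild type, 1971 and 1804 in ZnF1-/- cells and 1604 and 2089 in ZnF4-/- cells. All 4 mutant libraries lay below both wild-type libraries, while ZnF4 replicate 2 was only just below. The log2 fold change in ZnF4-/- cells was -0.25 (95% interval -0.86 to 0.36, adjusted p = 0.675), and it was -0.061 without ZnF4 replicate 1. Cd79a, the alpha chain gene, was at 856 and 759.5 RPKM in wild type, 861 and 668 in ZnF1-/- cells and 578 and 808 in ZnF4-/- cells. The groups overlapped, and the log2 fold change in ZnF4-/- cells was -0.24 (95% interval -0.80 to 0.32, adjusted p = 0.662). It was 0.0030 without ZnF4 replicate 1.

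Among the kinases, Syk, Blk and Btk had lower means in both mutants than in wild type and Fyn higher ones, and none passed in any of the 3 comparisons. Syk, the kinase that docks on the phosphorylated receptor tails, was at 502 and 444 RPKM in wild type, 403 and 367 in ZnF1-/- cells and 323 and 318 in ZnF4-/- cells. The 3 genotypes did not overlap, in that order. Its log2 fold change in ZnF4-/- cells was -0.56 (95% interval -0.93 to -0.19, unadjusted p = 0.00853 and adjusted p = 0.119 by limma). Fyn, a Src family kinase also used by T cells, was at 17.5 and 14.7 RPKM in wild type, 20.7 and 16.5 in ZnF1-/- cells and 23.1 and 24.3 in ZnF4-/- cells. Its ZnF4 libraries lay above all others, with a log2 fold change of 0.55 (95% interval 0.19 to 0.91, adjusted p = 0.119).

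Blk, a Src family kinase largely restricted to B cells, falls outside the rule for genes given with a test and was chosen after its values were seen, as was Fcgr2b. Blk had 211 and 227 RPKM in wild type, 166 and 151 in ZnF1-/- cells and 149.6 and 173 in ZnF4-/- cells. Both mutants lay below wild type and overlapped each other. By limma, the log2 fold change was -0.47 in ZnF1-/- cells (adjusted p = 0.255) and -0.44 in ZnF4-/- cells (adjusted p = 0.165). Btk, the kinase that activates phospholipase C gamma 2 and lies on the X chromosome, ranged from 92.0 to 119.6 RPKM, with both ZnF4 libraries below the other 4.

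**Figure D3:**
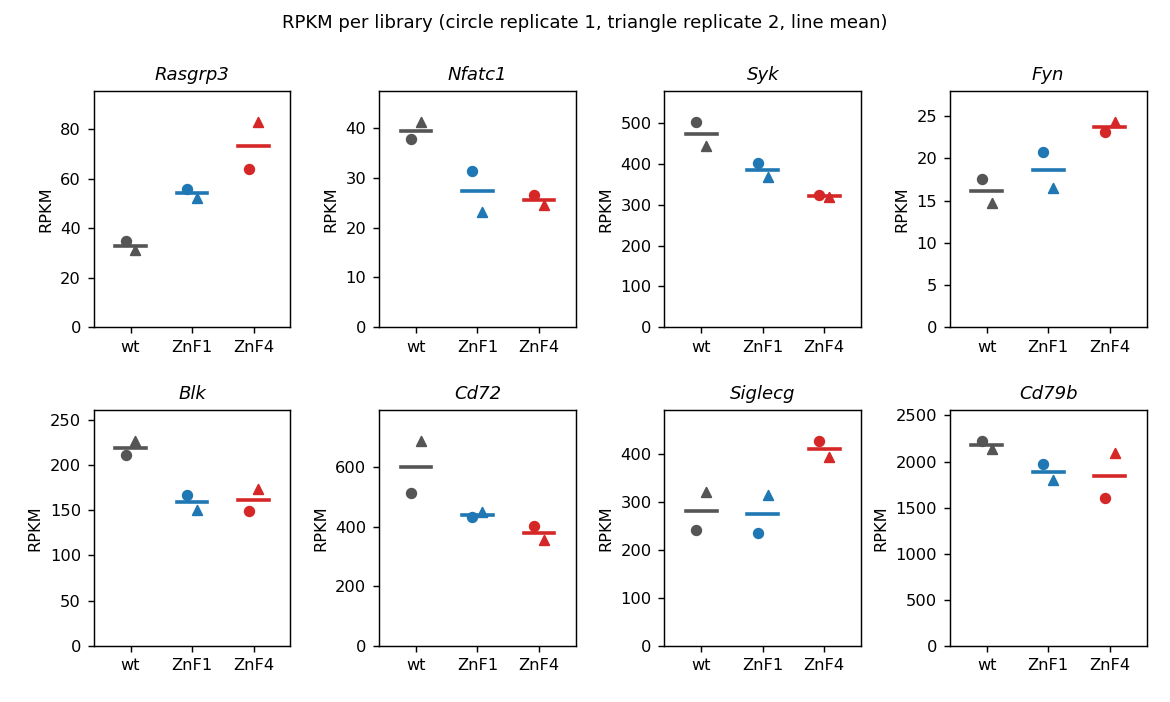
RPKM per library for 8 genes, with a line at each group mean, axes starting at 0. Rasgrp3 goes from a wild-type mean of 33.0 to 73.3 in ZnF4-/- cells, and the Syk libraries of the 3 genotypes do not overlap, while the ZnF4 points of Cd79b lie on both sides of its ZnF1 points.

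The adaptors and exchange factors other than Rasgrp3 were not called. Pik3ap1, which encodes BCAP, the adaptor that brings PI 3-kinase to the membrane, was at 188 and 207 RPKM in wild type, 167 and 130.2 in ZnF1-/- cells and 217 and 176 in ZnF4-/- cells. Both ZnF1 libraries lay below both of the wild-type libraries, as did ZnF4 replicate 2, while ZnF4 replicate 1 was the highest of all (ZnF1 log2 fold change -0.41, 95% interval -0.83 to -0.0011, adjusted p = 0.418). Blnk, the scaffold that links SYK to BTK and phospholipase C gamma 2, ranged from 144 to 195 RPKM and was lower in all 4 mutant libraries than in wild type. Vav1 (79.0 to 94.0 RPKM) and Vav2 (42.6 to 58.6 RPKM), exchange factors that act on the actin cytoskeleton, were not called in any comparison.

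Of the lipid enzymes, Plcg2, which makes the calcium and diacylglycerol signals, was at 199 and 175 RPKM in wild type, 189 and 167 in ZnF1-/- cells and 158 and 146 in ZnF4-/- cells. The ZnF4 libraries were the lowest, and the log2 fold change of -0.30 did not pass (95% interval -0.63 to 0.03, adjusted p = 0.335). Pik3r1, the regulatory subunit gene of PI 3-kinase, was at 25.6 and 23.6 RPKM in wild type, 27.5 and 24.5 in ZnF1-/- cells and 25.7 and 18.7 in ZnF4-/- cells. ZnF4 replicate 2 was low and its partner was not, so the mutants overlapped (log2 difference of ZnF4 from ZnF1 -0.24, adjusted p = 0.492). Pik3cd, the catalytic subunit p110 delta, lay between 106 and 124 RPKM in all libraries.

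In the NF-kB and NFAT arm, Nfatc1, a calcium-activated transcription factor gene, was at 37.8 and 41.2 RPKM in wild type, 31.4 and 23.2 in ZnF1-/- cells and 26.6 and 24.5 in ZnF4-/- cells. All 4 mutant libraries lay below wild type. The log2 fold change was -0.54 in ZnF1-/- cells (adjusted p = 0.244) and -0.62 in ZnF4-/- cells (95% interval -0.996 to -0.24, adjusted p = 0.0999), and neither passed. The ZnF4 value passed in a fit of only wild-type and ZnF4 libraries (adjusted p = 0.0356) and without either ZnF1 library (0.0354 without replicate 1 and 0.0358 without replicate 2), where the fold change is the same. The ZnF1 value was -0.75 without ZnF1 replicate 1 and passed there (adjusted p = 0.0395), where ZnF1 replicate 2 stands alone for its genotype. A second Nfatc1 transcript was also below wild type in all 4 mutant libraries, at 21.5 and 17.7 RPKM in wild type and between 11.6 and 16.2 in the 4 mutant libraries.

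Bcl10, the adaptor of the complex that activates NF-kB, was at 31.3 and 24.3 RPKM in wild type, 38.4 and 34.5 in ZnF1-/- cells and 25.8 and 34.1 in ZnF4-/- cells. Both ZnF1 libraries lay above both wild-type libraries, as did ZnF4 replicate 2 but not ZnF4 replicate 1 (ZnF1 log2 fold change 0.39, 95% interval -0.03 to 0.82, adjusted p = 0.460). Malt1, its protease partner, ranged from 52.2 to 77.1 RPKM with both ZnF4 libraries the highest. Prkcb, the protein kinase C isoform that signals to this complex in B cells, ranged from 97.8 to 126 RPKM.

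The co-receptor component Cd81 and the activating phosphatase gene Ptprc were not called. Cd81, a tetraspanin of the B cell co-receptor complex, was at 112 and 104 RPKM in wild type, 119 and 84.5 in ZnF1-/- cells and 87.9 and 94.6 in ZnF4-/- cells. Its ZnF4 libraries lay below wild type (log2 fold change -0.24, adjusted p = 0.522), and the ZnF1 pair spanned all other values. Ptprc, which encodes CD45, the phosphatase that primes Src family kinases, was at 325 and 286 RPKM in wild type, 353 and 322 in ZnF1-/- cells and 274 and 304 in ZnF4-/- cells. The groups overlapped except between the mutants (log2 difference -0.22, adjusted p = 0.482).

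None of the 8 inhibitory genes was called by limma in any comparison, and 2 of the 8 had an unadjusted p under 0.05 in ZnF4-/- cells, in opposite directions, where 17.4% of all tested genes had one. Cd72, a receptor whose cytoplasmic motif recruits SHP-1, was at 512 and 689.5 RPKM in wild type, 433 and 449 in ZnF1-/- cells and 403 and 356 in ZnF4-/- cells. The 3 genotypes did not overlap, although the wild-type pair was the widest of the Cd72 pairs. Its log2 fold change in ZnF4-/- cells was -0.65 (95% interval -1.11 to -0.19, adjusted p = 0.143). A shorter Cd72 transcript was at 29.2 and 37.1 RPKM in wild type, 24.1 and 23.0 in ZnF1-/- cells and 23.4 and 16.6 in ZnF4-/- cells.

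Siglecg, the sialic acid receptor that dampens calcium signalling, mainly in B1 cells, was at 242 and 319.5 RPKM in wild type, 235 and 313 in ZnF1-/- cells and 428 and 393 in ZnF4-/- cells. Its ZnF4 libraries lay above the other 4, which overlapped among themselves. In the fit, the log2 fold change was 0.56 in ZnF4-/- cells against wild type (95% interval 0.07 to 1.04, adjusted p = 0.224) and 0.59 against ZnF1-/- cells (95% interval 0.11 to 1.08, adjusted p = 0.165). Fcgr2b, the inhibitory Fc receptor, showed the same order at lower levels, with 75.8 and 85.3 RPKM in ZnF4-/- cells, 74.1 and 57.2 in wild type and 64.1 and 61.1 in ZnF1-/- cells (log2 difference of the mutants 0.36, adjusted p = 0.250). Cd22, the sialic acid receptor that recruits SHP-1, lay between 289 and 328 RPKM throughout.

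Ptpn6, which encodes SHP-1, ranged from 594 to 738 RPKM, and Inpp5d, which encodes SHIP-1, from 103 to 126 RPKM, each with overlapping groups against wild type. Cblb, a ubiquitin ligase that limits signalling, was at 32.4 and 32 RPKM in wild type, 26.7 and 23.6 in ZnF1-/- cells and 34.5 and 24.7 in ZnF4-/- cells. The ZnF1 libraries lay below wild type (log2 fold change -0.35, adjusted p = 0.490) and the ZnF4 pair fell on both sides of it. Dok3, an adaptor that recruits SHIP-1 and GRB2, was at 171 and 187 RPKM in wild type, 181 and 155 in ZnF1-/- cells and 157 and 160 in ZnF4-/- cells. The ZnF4 libraries were below wild type by a log2 fold change of -0.17 (adjusted p = 0.580).

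The 4 genes with both activating and inhibitory roles did not pass in any comparison either, by limma. Grb2, an adaptor that serves Ras activation and also acts with DOK3, was at 81.7 and 70.3 RPKM in wild type, 92.7 and 90.4 in ZnF1-/- cells and 64.4 and 77.8 in ZnF4-/- cells. The ZnF1 libraries were the highest, and the log2 difference of ZnF4 from ZnF1 was -0.37 (95% interval -0.70 to -0.03, adjusted p = 0.203). Bank1, a scaffold that binds LYN, was at 181 and 144 RPKM in wild type, 184 and 131 in ZnF1-/- cells and 189.8 and 219.6 in ZnF4-/- cells. ZnF4 libraries were the highest (log2 difference from ZnF1 0.40, adjusted p = 0.342), and the ZnF1 pair was the widest of the list within that genotype. Lyn, the Src family kinase that both starts the signal and feeds the inhibitory receptors, ranged from 128 to 169 RPKM, and Lat2, an adaptor related to LAT of T cells, from 73.2 to 115 RPKM.

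Set side by side, the positive genes had a median log2 fold change of -0.11 in ZnF1-/- and -0.17 in ZnF4-/- cells, against -0.0019 and -0.016 for all tested genes. Values were below 0 for 14 of 20 positive genes in each mutant, where 50.4% and 52.8% of all tested genes were. The inhibitory genes had a median of -0.11 in ZnF1-/- cells, with 7 of 8 below 0, and -0.066 in ZnF4-/- cells, with 5 of 8 below 0. Relative to the wild-type mean, the median of the positive genes was 0.067 and -0.067 in wild type, 0.011 and -0.22 in ZnF1 replicates 1 and 2 and -0.14 and -0.16 in ZnF4-/- cells. Without ZnF1 replicate 2, the library rich in granulocyte RNA, the ZnF1 median of the positive genes was 0.011 and 9 of 20 were below 0. For all tested genes the median was then 0.029, with 43.9% below 0. Without wild-type replicate 1 the ZnF1 median of the positive genes was -0.021, with 11 of 20 below 0, against 0.0073 and 49.1% for all tested genes. The part of granulocyte RNA in these shifts was not tested.

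**Figure D4:**
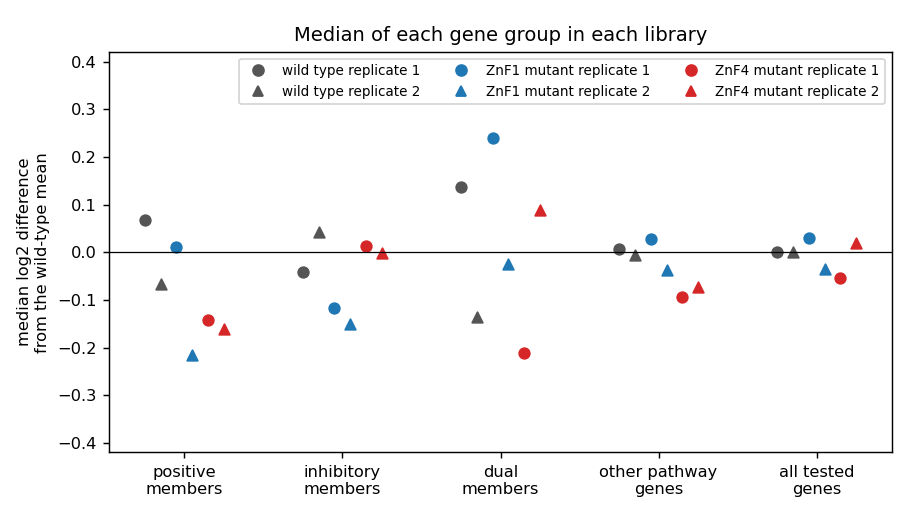
The vertical axis is the median over the genes of a group of the log2(RPKM + 0.5) difference from the wild-type mean, and each point is a library. The positive genes have ZnF1 points at 0.011 and -0.22 and ZnF4 points at -0.14 and -0.16, and the libraries of the 4 dual genes spread from -0.21 to 0.24.

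The difference between the mean log2 level of the inhibitory and that of the positive genes was 0.59 and 0.75 in wild type, 0.50 and 0.70 in ZnF1-/- cells and 0.79 and 0.70 in ZnF4-/- cells, so the 3 genotypes overlapped. Between the mutants, the median log2 difference (ZnF4 minus ZnF1) was -0.065 for positive and 0.10 for inhibitory genes. Quantile normalization turned the first of these to 0.026 and gave 0.16 for the second, and it gave -0.084 in place of -0.17 for the positive genes in ZnF4-/- cells. It also lowered the ZnF4 count of all members below 0 from 22 to 19 of 32, where the share of all tested genes went from 52.8% to 52.1%.

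Other genes of the pathway were taken from a list of 101 names, of which 98 were in the table and 96 were tested. In ZnF1-/- cells 1 of 96 was called, and it was lower, as were 0.174% of all tested genes. In ZnF4-/- cells 1 was higher and 2 were lower, against 1.78% and 1.41% of all tested genes, so the share of called genes (3.13%) is that of the whole table. Between the mutants 2 were higher and 3 lower in ZnF4-/- cells, as were 2.69% and 2.08% of all tested genes. The medians of the list in these 3 comparisons were -0.0010, -0.099 and -0.10 on the log2 scale, against -0.0019, -0.016 and -0.029 for all tested genes.

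Vav3, a further Vav exchange factor gene, rose in ZnF4-/- cells as Rasgrp3 did. Vav3 had 3.4 and 2.8 RPKM in wild type, 5.4 and 5.9 in ZnF1-/- cells and 8.7 and 7.6 in ZnF4-/- cells, with no overlap between genotypes. The log2 fold change in ZnF4-/- cells was 1.27 (SE 0.17, adjusted p = 0.0113) and in ZnF1-/- cells 0.78 (adjusted p = 0.141). Its level was far under those of Vav1 and Vav2. Rasgrp1, another Ras exchange factor gene of lymphocytes, lay between 72.8 and 86.7 RPKM and was not called. The level of Rasgrp3 was below that of Rasgrp1 in both wild-type libraries and above it in ZnF4 replicate 2 alone.

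Ppp3cc, a catalytic subunit gene of the calcium-activated phosphatase calcineurin, fell in ZnF4-/- cells, from 43.9 and 35.7 RPKM to 15.7 and 22.3, with 42.6 and 34.4 in ZnF1-/- cells. By limma, the log2 fold change was -1.06 (SE 0.20, adjusted p = 0.0387), and the direct comparison called it lower than in ZnF1-/- cells as well (-1.01, adjusted p = 0.0341). Foxo1, a transcription factor gene whose protein is exported from the nucleus by PI 3-kinase signalling, fell from 79.7 and 72.3 to 47.8 and 39.5 RPKM in ZnF4-/- cells (-0.80, adjusted p = 0.0492) and was at 70.9 and 55.2 in ZnF1-/- cells. Without any 1 of the wild-type or ZnF4 libraries (replicate 1 or 2 of wild type, replicate 1 or 2 of ZnF4-/-), none of these 3 ZnF4 calls held, with adjusted p between 0.0723 and 0.137 for Vav3, 0.131 and 0.249 for Ppp3cc, and 0.172 and 0.328 for Foxo1. Ppp3cc and Foxo1 also did not pass without a filter on low values (adjusted p = 0.111 and 0.109) or without an intensity trend (0.0678 and 0.0844), and Foxo1 did not with a pseudocount of 1 (0.0510) or quantile normalization (0.0856).

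Inppl1, which encodes the inositol phosphatase SHIP-2, a relative of SHIP-1, fell in ZnF1-/- cells. Inppl1 had 9.8 and 11.2 RPKM in wild type, 3.4 and 2.6 in ZnF1-/- cells and 15.3 and 14.4 in ZnF4-/- cells, so the 3 genotypes did not overlap. The log2 fold change in ZnF1-/- cells was -1.66 (SE 0.16, adjusted p = 0.0166), and the ZnF4 level was higher than the ZnF1 level by 2.14 (adjusted p = 0.00205). The ZnF1 call was lost without any 1 library other than ZnF1 replicate 1: the adjusted p was 0.162 and 0.223 without wild-type replicates 1 and 2, 0.0545 without ZnF1 replicate 2, and 0.186 and 0.191 without ZnF4 replicates 1 and 2. It was 0.202 without a filter on low values and 0.183 in a fit of only these 2 genotypes. The direct call was lost without ZnF4 replicate 1 (adjusted p = 0.0825) and ZnF4 replicate 2 (0.0554).

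The direct comparison of the mutants also called Nfatc2 and Pirb, both lower in ZnF4-/- cells. Nfatc2, a relative of Nfatc1, was at 1.4 and 2.2 RPKM in ZnF4-/- cells, 5.9 and 5.4 in ZnF1-/- cells and 3.3 and 2.0 in wild type (-1.44, adjusted p = 0.0295). Pirb, an inhibitory immunoglobulin-like receptor gene of B and myeloid cells, listed as Lilrb3, was at 5.7 and 7.9 RPKM in ZnF4-/- cells, 13 and 21.9 in ZnF1-/- cells and 12.6 and 14.4 in wild type (-1.27, adjusted p = 0.0362). Its highest value was in ZnF1 replicate 2, the library with the most granulocyte RNA, whose part was not tested, and reads of similar receptor genes may be shared with it.

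Both of these calls and the direct Ppp3cc call were lost without ZnF4 replicate 1 and without ZnF4 replicate 2. The adjusted p was then 0.201 and 0.127 for Nfatc2, 0.237 and 0.164 for Pirb, and 0.203 and 0.0957 for Ppp3cc. Nfatc2 and Pirb were also lost without ZnF1 replicate 2 (0.0584 and 0.0822), and Ppp3cc without ZnF1 replicate 1 (0.0729). When either wild-type replicate 1 or wild-type replicate 2 was left out, the direct calls of Pirb (0.0916 and 0.0898) and Ppp3cc (0.0753 and 0.0740) were lost too. None of these 3 calls held without a filter on low values (adjusted p = 0.0856 to 0.112).

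**Figure D5:**
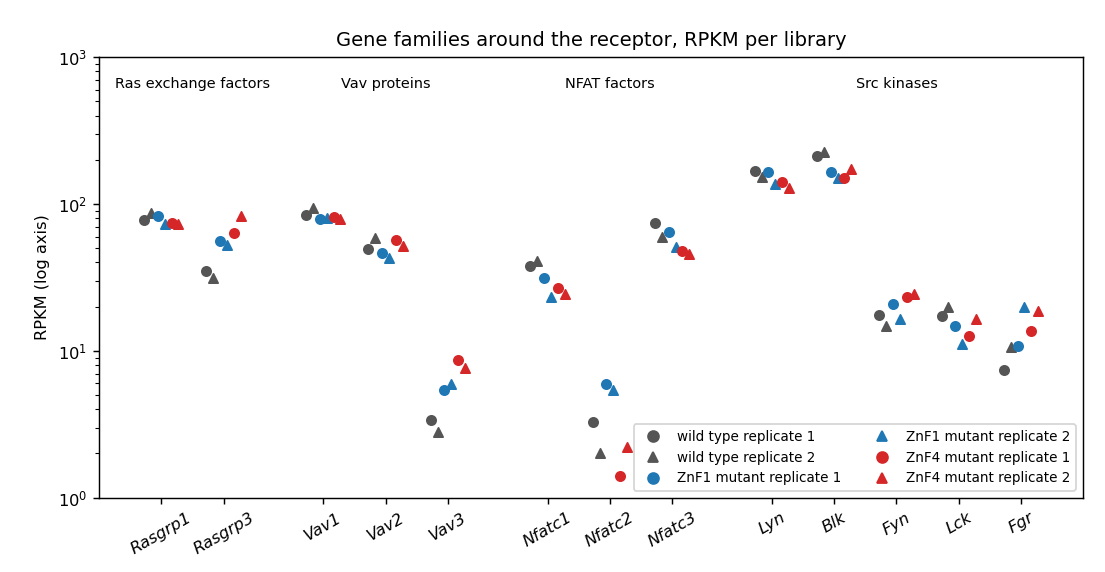
RPKM on a log axis for 4 gene families that hold genes of the list, one point per library. Vav3 is the least abundant Vav gene and is ordered wild type, ZnF1, ZnF4, as Rasgrp3 is, while Rasgrp1, Vav1 and Vav2 were not called, and the Src kinase gene Blk has its highest points in wild type.

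Fgr, a Src family kinase gene at 7.4 and 10.7 RPKM in wild type, was between 10.8 and 19.9 in the mutants and was not called. Igll1, which encodes part of the surrogate light chain used by pre-B cells, was at 5.7 and 13.7 RPKM in wild type, 18.5 and 28.6 in ZnF1-/- cells and 130.4 and 121 in ZnF4-/- cells. Igll1 belongs to a list of 9 progenitor markers, of which 3 were called higher in ZnF4-/- cells by limma and 1 lower. The higher ones were Igll1 (log2 fold change 3.75, adjusted p = 0.00549), Vpreb1 (2.64, adjusted p = 0.0116) and Kit (2.79, adjusted p = 0.0361). Rag1, which cuts antigen receptor genes for their rearrangement, fell from 14.5 and 17.6 RPKM in wild type to 4.4 and 2.2 (-2.18, adjusted p = 0.0109). Dntt (-2.88, adjusted p = 0.0514) and Rag2 (-1.09, adjusted p = 0.110) did not pass. The list's summed level, 483 to 738 RPKM, is mostly Vpreb3 (407 to 612 RPKM) and does not show these differences. The part of such cells in the values of Rasgrp3 was not tested.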

How the data were processed

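RNA-seq of 6 libraries (3 genotypes, 2 libraries each) was used. The authors deposited RPKM for 26531 transcripts, rounded to steps of 0.1, per the file headers and values. Mapping was to mm9 with TopHat and bedtools named, per the submitters' processing notes. Tool versions, the read total and the use of strand are not given in the sources used here, so overlapping or antisense transcripts cannot be told apart.

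The transcript with the highest mean stood for its gene name. Names with a mean RPKM of at least 1 were tested on log2(RPKM + 0.5), which understates changes of low genes, with limma 3.58.1 in R 4.3.3 (1 coefficient per genotype, all 6 libraries, eBayes with trend, 3 residual degrees of freedom), adjusted by Benjamini-Hochberg at 0.05. The fit was tested on simulated data. With 2 libraries a genotype, an exact permutation test could not pass, so only the fit across genes was used. Values with a test are given for called members and the 2 of smallest p in each of 9 role groups, and for called genes of the other list, of which 1 is not reported here. Rasgrp1, Fgr, Blk and Fcgr2b lie outside this rule and were picked with their values in view. Members and lists were chosen with earlier results of these data known. All 6 value columns were used, and 15 alternatives were run. Each p-value reflects no more than the variation among these 6 libraries, which may be technical in part. Depth is unknown. RefSeq tables on GRCm38.p6 gave names and sequences only.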

Additional observations from a re-analysis of the deposited data

How the results depend on the processing

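Over 15 alternatives, Rasgrp3 kept its direction in all and its ZnF4 call in 10. The other members given with a test were followed only in comparisons with an unadjusted limma p under 0.05 or their smallest p. There each kept its direction, except Cd79a in ZnF4-/- cells (-0.48 to 0.0030 when 1 library was left out). Elsewhere a direction can turn. The Cd81 libraries of ZnF1-/- cells, at 119 and 84.5 RPKM, lay on both sides of wild type (112.1 and 103.9). Leaving out 1 library at a time gave these ranges. Against wild type in ZnF1-/- cells, 0 to 512 genes, 0 to 1 members and 0 to 6 other pathway genes were called by limma (unadjusted p under 0.05 for 609 to 1916, 1 to 5 and 9 to 28), and medians were -0.22 to 0.011 for positive and -0.20 to -0.11 for inhibitory members. In ZnF4-/- cells the counts were 0 to 591, 0 to 2 and 0 to 6 (unadjusted 1117 to 2118, 4 to 8 and 10 to 21), with medians of -0.24 to -0.13 and -0.086 to 0.014. Between the mutants they were 0 to 814, 0 and 0 to 6 (unadjusted 1474 to 2213, 1 to 4 and 16 to 22), with medians of -0.19 to 0.049 and 0.075 to 0.10. The extremes for genes came without ZnF1 replicate 1 (512, 591 and 814), without a wild-type or ZnF4 library (0 in the ZnF1 comparison), and without ZnF4 replicate 1 (0 in the other comparisons, against wild type also without ZnF4 replicate 2). The main counts were 28, 330 and 493 genes, 0, 1 and 0 members and 1, 3 and 5 other pathway genes.

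Without a filter on low values, limma called 0 genes (1596 unadjusted) and 0 other pathway genes (17) in ZnF1-/- cells, 189 genes, 0 members (7) and 1 other pathway gene in ZnF4-/- cells, and 309 and 1 between the mutants. A fit of only the 2 genotypes called 0 genes (1053) and 0 other pathway genes (15) for ZnF1, 594 genes, 2 members and 6 other pathway genes for ZnF4, and 249 and 2 between the mutants. Without an intensity trend, 1 (ZnF4) and 2 (direct) other pathway genes were called. Quantile normalization gave 13 genes in ZnF1-/- cells and inhibitory medians of -0.019 (ZnF4) and 0.16 (direct). The cause was not tested. A replicate block moved the counts to 27, 327 and 529 genes, 0, 1 and 0 members and 1, 4 and 5 other pathway genes, and the Ppp3cc fall in ZnF4-/- cells then missed the threshold (adjusted p = 0.0535). Deviations of same-numbered libraries correlated across genes with r = 0.28 (wild type and ZnF1), -0.03 (wild type and ZnF4) and 0.21 (both mutants), which, over only 2 numbers and with no label that ties them, does not settle whether the libraries are paired.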

Other observations

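The tested genes next to Rasgrp3 in the GRCm38.p6 gene order, Birc6 and Ttc27 before it and Fam98a and Fez2 after it, were chosen by position only. Their log2 fold changes in ZnF4-/- cells were 0.21, 0.15, 0.07 and -0.06, and none was called in any of the 3 comparisons. Fam98a, the nearest after Rasgrp3, was at 14.5 and 14.4 RPKM in wild type, 16.3 and 16.9 in ZnF1-/- cells and 14.8 and 15.6 in ZnF4-/- cells.

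Of the 32 genes, 12 had further transcripts in the table, 16 in all, of which 11 had a mean of at least 1 RPKM. A second Ptpn6 transcript was at 14.5 and 17.1 RPKM in wild type, 14.4 and 23.3 in ZnF1 replicates 1 and 2 and 13.2 and 25.2 in ZnF4 replicates 1 and 2. It was highest in the replicate 2 libraries of both mutants, while the main Ptpn6 transcript was at 641 and 599 in ZnF1-/- and 594 and 663 in ZnF4-/- cells. How the authors' counting divides reads among overlapping transcripts is not given in the sources used here.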
